A study of Homo sapiens with 9 samples.

Results

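The mitochondrial ribosomal proteins were taken as all genes on the array whose symbol begins with MRPL or MRPS and a digit. Only probe sets annotated with a single gene were used, and each gene was read from its probe set with the highest mean signal over all arrays. This gave 77 genes out of 19775 genes with such a probe set. Of the 77, 75 encode proteins of the mitochondrial ribosome, 50 in the large and 25 in the small subunit. The other 2 are MRPL20-AS1, a long non-coding RNA, and MRPL45P2, a pseudogene. A filter on low values kept 76 of the 77, and MRPL45P2, with a mean signal of 4.60, did not pass. Another 4 probe sets of the family, annotated with a second gene, were left out.

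The mitochondrial ribosome translates the few proteins encoded by mitochondrial DNA, all of them core subunits of the respiratory chain and the ATP synthase. All of its proteins are encoded in the nucleus, made on cytosolic ribosomes and imported. Many descend from bacterial ribosomal proteins, and others were added during the evolution of mitochondria and have no bacterial counterpart. In mammary epithelial cells, as elsewhere, a respiratory chain cannot be made without this ribosome.

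RNA was measured in MCF10A, an immortalised, non-tumorigenic human mammary epithelial line, on 9 Affymetrix arrays of 54675 probe sets. The vector group carried the empty retrovirus pBabe, the ERBB2 group carried pBabe-ErbB2, and the EGF group carried the empty virus and was given EGF for the last 2 hours, at 50 ng/ml. All 3 groups had been moved after infection to medium with 2% horse serum and no EGF, from maintenance medium with 5% horse serum and EGF at 20 ng/ml. That maintenance medium also held hydrocortisone, cholera toxin and insulin. Each group had 3 arrays, labelled as biological replicates. Separate infections are not stated, and the spread tested is that between these arrays, which may be technical. The labels give no time from infection to harvest for the ERBB2 group, so its duration cannot be set against the 2 hours of EGF.

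Values are MAS5 signal intensities, which are linear and 1 per probe set and array. Changes are differences of group means of log2(signal + 16), which understate the change of dim genes. A gene was called higher or lower where limma's moderated test over all 32768 probe sets past the filter gave a Benjamini-Hochberg adjusted p under 0.05. The comparisons of ERBB2 and of EGF with vector share the same 3 vector arrays.

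The brightest of the ERBB2 probe sets did not mark the transduced group. It read 183.9, 216.2 and 121.9 in vector and 114.1, 72.21 and 110.2 with the ERBB2 label (a change of -0.71 on the log2 scale, adjusted p = 0.006756). A dimmer ERBB2 probe set read 5.677, 9.69 and 22.48 against 34.05, 34.23 and 38.48 (0.89, adjusted p = 0.008824). Probe positions were not used here, so whether these probe sets lie inside the viral insert was not tested, and "ERBB2" below means the arrays so labelled. The arrays also differed in RNA measures. For ACTB, the 5′ control probe set divided by the 3′ one was 0.379 ± 0.0555 (SD, n = 3) in vector, 0.737 ± 0.0513 in ERBB2 and 0.444 ± 0.0636 in EGF, while the same GAPDH ratio was 0.846 ± 0.034, 0.869 ± 0.0315 and 0.812 ± 0.0452. The 3′ probe set for 18S ribosomal RNA read 3380 ± 1330 in vector, 12600 ± 823 in ERBB2 and 2870 ± 673 in EGF. Of 10 mammary epithelial markers, basal or general, 8 were measured. Their summed signal was 29790 to 34520 in vector, 22730 to 24310 in ERBB2 and 29780 to 35150 in EGF, and SFN and KRT5 carried most of it. In ERBB2 4 of the 8 were called lower and 2 higher, among them KRT14, a basal keratin (-4.00, adjusted p = 9.072e-17), and EPCAM, an epithelial adhesion protein (1.13, adjusted p = 5.533e-09). The summed signal of 7 fibroblast markers was 1359 to 1540 in vector, 414.7 to 599.5 in ERBB2 and 528.8 to 581.4 in EGF, and DCN carried most of it. The 5 of 7 blood and endothelial markers that were measured summed to 52.08 to 77.45, 115.6 to 125.7 and 50.66 to 65.94. PECAM1 was the only one of these past the low-value filter. The part of these differences in the results below was not tested.

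Because many of these genes rose together, their promoters were read first. Of the 77 genes, 68 matched a promoter of 300 bases in the RefSeq table for GRCh38.p14, from 250 bases before to 50 after the listed start. The stretches printed here are the 150 bases before the start of 5 genes, chosen after their values were seen. They are MRPL17, the largest rise in both comparisons with vector, MRPS23, which rose about equally in both, MRPL36, which rose more with EGF, MRPL33, the largest fall in ERBB2, and MRPL50, higher with EGF than in both other groups. Capitals mark matches, on either strand, to 4 motifs also chosen after the values were seen. These were GCGCA, any base and GCGC (NRF1), CCGGAAG (ETS factors such as GABP), CACGTG (the E-box of MYC and related factors) and AAGATGGC (YY1). The stretches lie at chr11:6683341-6683490 (minus strand), chr17:57850045-57850194 (minus), chr5:1799838-1799987 (minus), chr2:27771569-27771718 (plus) and chr9:101398619-101398768 (minus).
MRPL17: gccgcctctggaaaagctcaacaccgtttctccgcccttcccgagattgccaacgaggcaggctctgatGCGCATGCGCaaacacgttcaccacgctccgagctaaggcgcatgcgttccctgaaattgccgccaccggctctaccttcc
MRPS23: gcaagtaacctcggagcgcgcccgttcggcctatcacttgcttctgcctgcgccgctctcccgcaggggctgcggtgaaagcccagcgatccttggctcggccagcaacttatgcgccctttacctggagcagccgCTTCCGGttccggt
MRPL36: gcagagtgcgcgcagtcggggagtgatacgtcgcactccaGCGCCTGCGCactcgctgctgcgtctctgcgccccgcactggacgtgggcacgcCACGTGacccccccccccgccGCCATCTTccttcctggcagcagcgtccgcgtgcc
MRPL33: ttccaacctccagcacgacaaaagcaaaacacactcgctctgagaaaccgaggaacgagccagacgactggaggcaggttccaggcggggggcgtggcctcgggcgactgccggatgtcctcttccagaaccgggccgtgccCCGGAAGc
MRPL50: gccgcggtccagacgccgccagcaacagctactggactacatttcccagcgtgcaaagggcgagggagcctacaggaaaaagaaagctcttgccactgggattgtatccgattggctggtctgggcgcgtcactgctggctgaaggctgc
The printed MRPL50 stretch holds none of the 4, and its promoter has a YY1 match after the start.

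ETS and YY1 matches were frequent among the promoters of the mitochondrial ribosomal proteins. The ETS letters stood in 28 of 68 (41.2%), against 10.6% of all 27305 promoters in the table, 17.7% of those of genes tested on the arrays and 35.8% of 53 cytosolic ribosomal protein promoters. The YY1 letters stood in 19 of 68 (27.9%), against 3%, 4.95% and 11.3%. The E-box was in 9 (13.2%, against 7.28%, 9.58% and 5.66%). The NRF1 motif was in 6 (8.82%), above the 6.05% of all promoters but below the 10.5% of tested and 11.3% of cytosolic ribosomal protein genes. A match describes letters, not binding. The motifs were also present where the gene was not called higher. Of 22 genes called higher in neither comparison with vector, 36.4% had the ETS and 27.3% the YY1 letters. Of 25 called higher in both, 44% had the ETS and 32% the YY1 letters. The difference between these classes was not tested.

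Some of these genes start close to a neighbour that points the other way. A protein-coding gene starting within 1000 bases on the opposite strand and facing away was found for 20 of 67 (29.9%), against 9.55% of 15843 protein-coding genes. The share among genes tested on the arrays was not computed. MRPL46 and MRPS11 form such a pair with each other, 320 bases apart, and neither was called in either comparison with vector. In 19 of the 20 cases both genes were tested, with MRPL46 and MRPS11 each counted once as gene and once as partner. The median log2 change in ERBB2 was 0.24 for the mitochondrial ribosomal genes and 0.13 for the partners, and with EGF 0.15 and -0.06. MRPL27 and EME1, a DNA repair nuclease subunit gene starting 45 bases away, both had positive changes (1.02 and 0.87 in ERBB2). MRPL14 and TMEM63B, 647 bases apart, had changes of opposite sign (0.6 and -0.79).

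In ERBB2 the mitochondrial ribosomal protein genes were mostly higher than in vector. Of 76 tested, 47 were called higher and 2 lower, and 27 were not called. That is 61.8% higher and 2.63% lower, against 20.8% and 25.1% of all 13723 genes tested. The median log2 change was 0.32 (range -0.42 to 1.43), against -0.07 over all genes. All 3 ERBB2 arrays lay above all 3 vector arrays for 52 of the 76 and below for 4, where 23.6% and 29.1% of all genes did so. A called rise of at least a doubling was measured for 7 genes (9.21%), against 6.3% of all genes. The median signal of the genes was 521 ± 13 (SD, n = 3) in vector and 742 ± 25.8 in ERBB2, and their share of all signal on an array was 0.452% to 0.469% against 0.644% to 0.662%. In a bulk sample, fewer cells expressing a gene and less RNA per cell cannot be told apart. The plot of cumulative changes shows the shift against all genes.

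**Figure D1:**
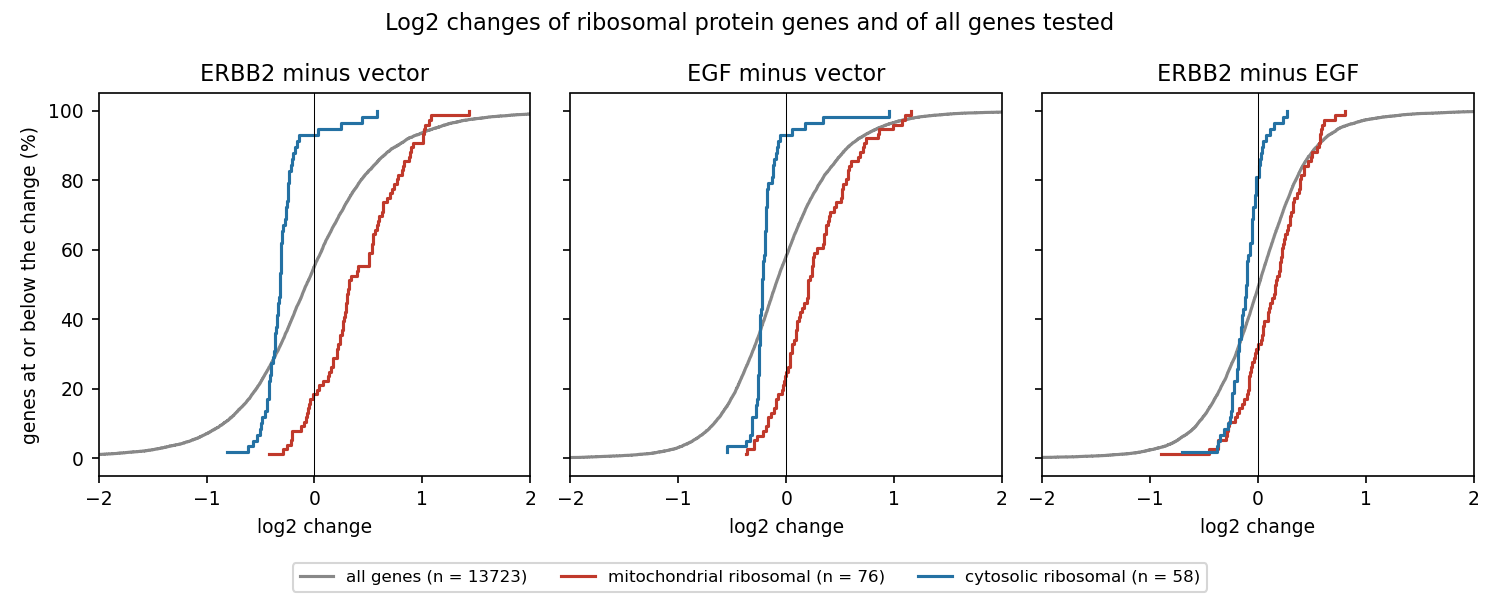
Cumulative share of genes (%) by log2 change in each comparison, for all 13723 genes tested, 76 mitochondrial and 58 cytosolic ribosomal protein genes. In both comparisons with vector the mitochondrial curve lies right of that of all genes over most of its length (medians 0.32 and 0.2, against -0.07 and -0.1) and the cytosolic curve rises steeply left of 0 (medians -0.32 and -0.22); in ERBB2 minus EGF the curves lie closer (0.16, -0.11 and, for all genes, 0.01).

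The largest rise belonged to MRPL17, a large subunit protein with a bacterial counterpart. Its signal was 245.6, 314.5 and 276.7 in vector and 783.1, 731.6 and 818.3 in ERBB2, a log2 change of 1.43 ± 0.1 (SE, adjusted p = 5.56e-10). Every ERBB2 array lay far above every vector array. MRPL42, a large subunit protein found only in mitochondria, read 664.5, 617.6 and 731.6 in vector and 1442, 1406 and 1447 in ERBB2 (1.08, adjusted p = 3.426e-08). MRPL35 read 319, 266.7 and 259 against 593.4, 622.1 and 592 (1.06, adjusted p = 6.121e-08). In each case the groups were well apart, and the 3 ERBB2 arrays lay close together. MRPL27, whose bacterial counterpart sits near the catalytic centre, read 558.6, 526.5 and 500.5 in vector and 1115, 1153 and 1007 in ERBB2 (1.02, adjusted p = 6.705e-09). MRPL16 read 415.3, 427.8 and 422.2 against 749.1, 940.7 and 933.1 (1.02, adjusted p = 3.559e-08), the first ERBB2 array being the lowest of its group but still above every vector array. Among small subunit proteins, MRPS23, also without a bacterial counterpart, rose most. It read 494.2, 496.2 and 479 in vector and 1042, 1008 and 947.4 in ERBB2 (1.0 ± 0.08, adjusted p = 3.711e-09).

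The brightest genes of the family differed among themselves. MRPL3, which lies at the core of the large subunit, read 2362, 2253 and 2417 in vector and 4228, 4572 and 4469 in ERBB2 (0.91 ± 0.06, adjusted p = 7.14e-10). MRPS15, of the small subunit, read 2633, 3149 and 2935 against 2997, 3188 and 3284, and the groups overlapped (0.12, adjusted p = 0.2419). MRPL57 read 2248, 2285 and 2172 against 2267, 2007 and 2067, also overlapping (-0.08, adjusted p = 0.3984). So of the 3 brightest genes only MRPL3 was called in ERBB2. MRPL12, the stalk protein that contacts translation factors, read 390.9, 406.1 and 387.4 against 704.3, 546.3 and 607.1 (0.62, adjusted p = 3.297e-05).

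Only MRPL33 and MRPS14 were called lower in ERBB2. MRPL33, one of the smallest large subunit proteins, read 1720, 2026 and 1778 in vector and 1290, 1463 and 1352 in ERBB2 (-0.42 ± 0.08, adjusted p = 0.0002666). MRPS14 read 805.7, 926.8 and 860.1 against 732.6, 678.4 and 698.8 (-0.29, adjusted p = 0.009986), and its second probe set was lower as well (-0.52, adjusted p = 0.01318). Neither gene's groups overlapped. The call of MRPS14 was lost without vector replicate 2 (-0.24, adjusted p = 0.05256) and with equal array medians (-0.2, adjusted p = 0.1202). Without vector replicate 1, 4 genes rather than 2 were called lower.

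**Figure D2:**
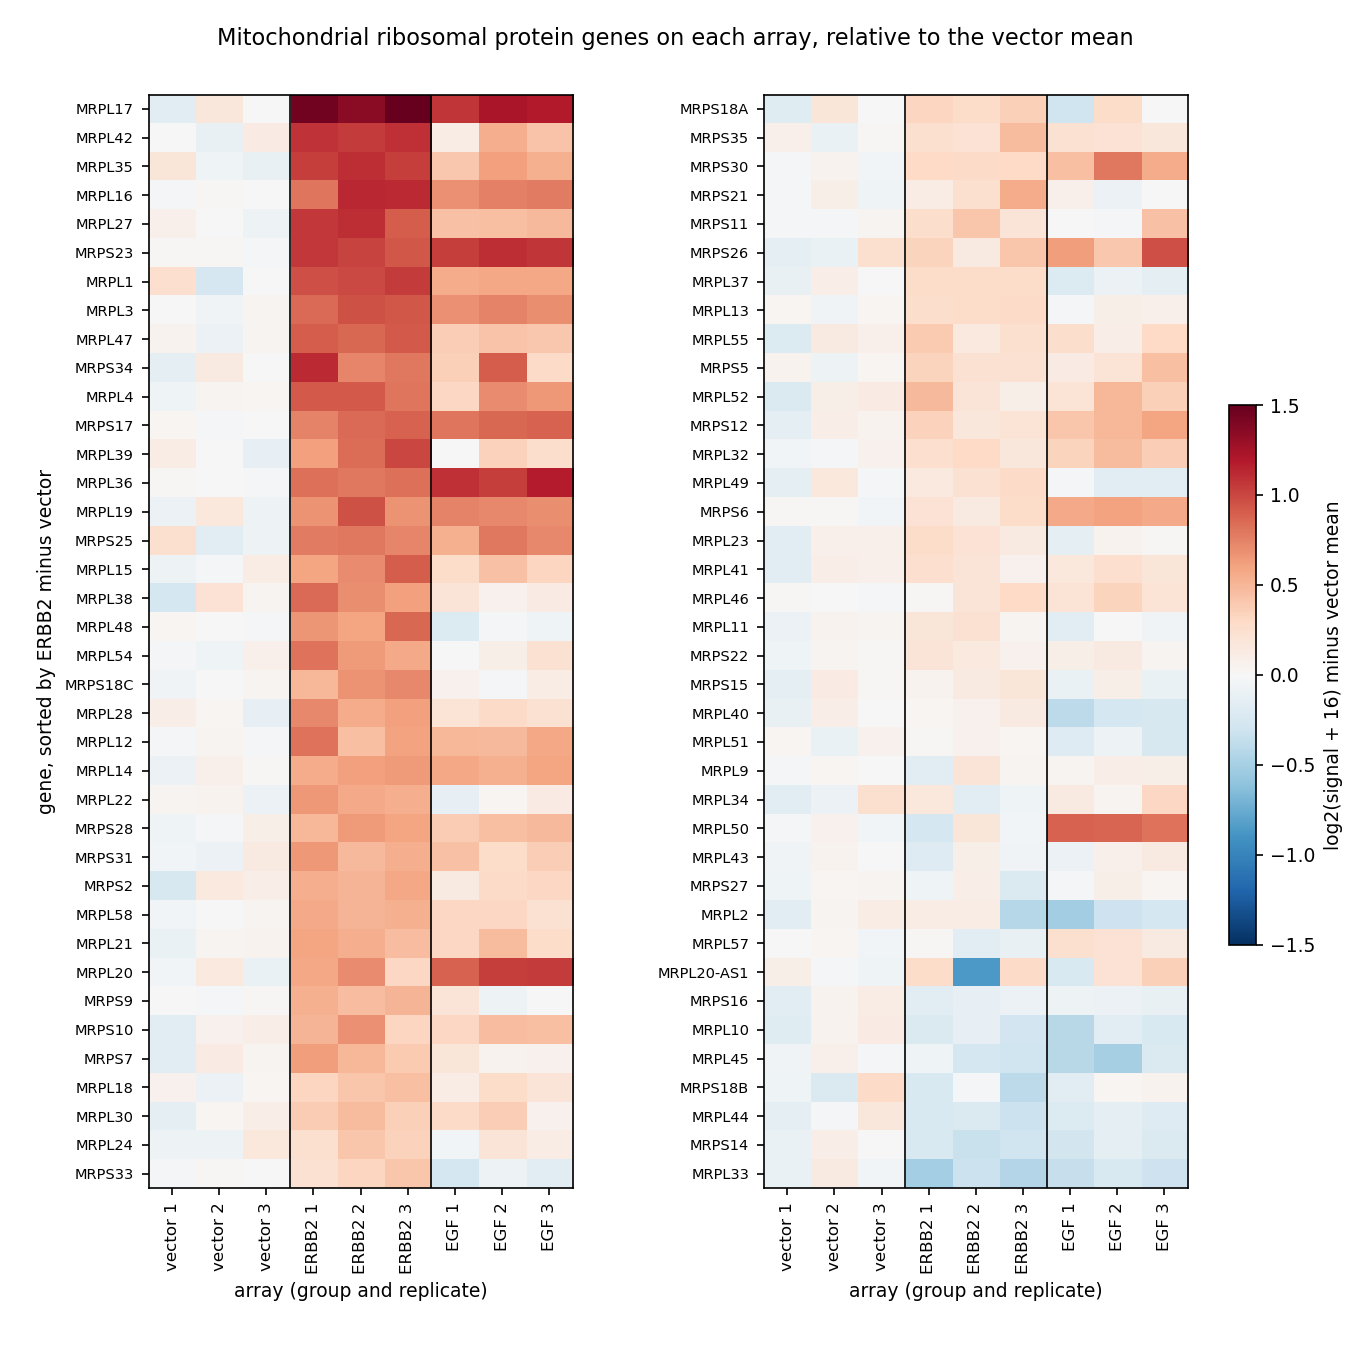
Log2(signal + 16) minus the vector mean on each of the 9 arrays for the 76 genes tested, sorted by ERBB2 minus vector from MRPL17 (1.43) at the top left to MRPL33 (-0.42) at the bottom right. Red is above and blue below the vector mean; most rows of the left block are red on all 3 ERBB2 arrays and paler with EGF, and MRPL50 is red with EGF only.

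After 2 hours of EGF, too, more of these genes were higher than lower. Of 76, 33 were called higher and 3 lower, which is 43.4% and 3.95%, against 17.2% and 19% of all genes tested. The median log2 change was 0.2 (range -0.37 to 1.16), against -0.1 over all genes. The groups did not overlap for 38 genes above and 7 below vector, where 21.2% and 27.5% of all genes did so. The median signal of the genes was 671 ± 30.8 (SD, n = 3) and their share of all signal 0.555% to 0.6%. Scaling matters here: with equal array medians 59 genes were called higher (median 0.50), but the median of all probe sets then moved from -0.11 to 0.11 and the share of calls that were higher from 44.8% to 78%. With quantile normalization 30 were higher and 7 lower (median 0.19).

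MRPL17 again changed most and read 600.4, 668.9 and 652.3 with EGF, more than the 278.9 ± 34.5 of vector on every array (1.16 ± 0.1, adjusted p = 2.829e-08). MRPL36, a very small zinc-binding protein of the large subunit, read 1308, 1290 and 1263 in vector and 2763, 2651 and 2930 with EGF (1.1 ± 0.07, adjusted p = 3.448e-10). MRPS23 read 1018, 1076 and 1050 with EGF (1.07 ± 0.08, adjusted p = 4.024e-09). These 3 genes (3.95%, against 3.34% of all genes) had log2 changes of at least 1, and no array of one group reached the other. MRPL20, whose bacterial counterpart acts early in large subunit assembly, read 963.7, 1103 and 925.7 in vector and 1843, 2050 and 2072 with EGF (0.99, adjusted p = 1.75e-07). The size of the MRPL20 rise depended on the processing, from 0.32 to 1.28 over 21 alternatives, and the call was kept in all. MRPL50, found only in mitochondria, read 394.4, 417.5 and 387.6 against 752.4, 745.4 and 712.1 (0.86 ± 0.11, adjusted p = 3.139e-06). MRPS17 read 507.6, 485.1 and 495.3 against 875.6, 913.2 and 928.4 (0.85, adjusted p = 1.179e-07), with all EGF arrays far above vector. MRPL3 (0.71, adjusted p = 6.149e-08) and MRPL12 (0.52, adjusted p = 0.0003718) were called as well.

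MRPL45, MRPL40 and MRPL33 were called lower with EGF. MRPL45, which helps hold the ribosome at the inner membrane, read 569.1, 627.4 and 581.1 in vector and 440.2, 415.4 and 508.2 with EGF (-0.37, adjusted p = 0.00758). MRPL40 read 655.7, 762.8 and 711.6 against 534.6, 589.3 and 597 (-0.3, adjusted p = 0.01432). MRPL33 read 1442, 1569 and 1476 with EGF (-0.29, adjusted p = 0.008812). The groups did not overlap, yet none of the 3 calls held with equal array medians, where the changes were -0.08, -0.01 and 0.00. Without vector replicate 2 the calls of MRPL40 (-0.25, adjusted p = 0.0689) and MRPL33 (-0.22, adjusted p = 0.05672) were lost, and that of MRPL40 also without EGF replicate 1 (-0.25, adjusted p = 0.06859). Without vector replicate 1, 5 genes were called lower.

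**Figure D3:**
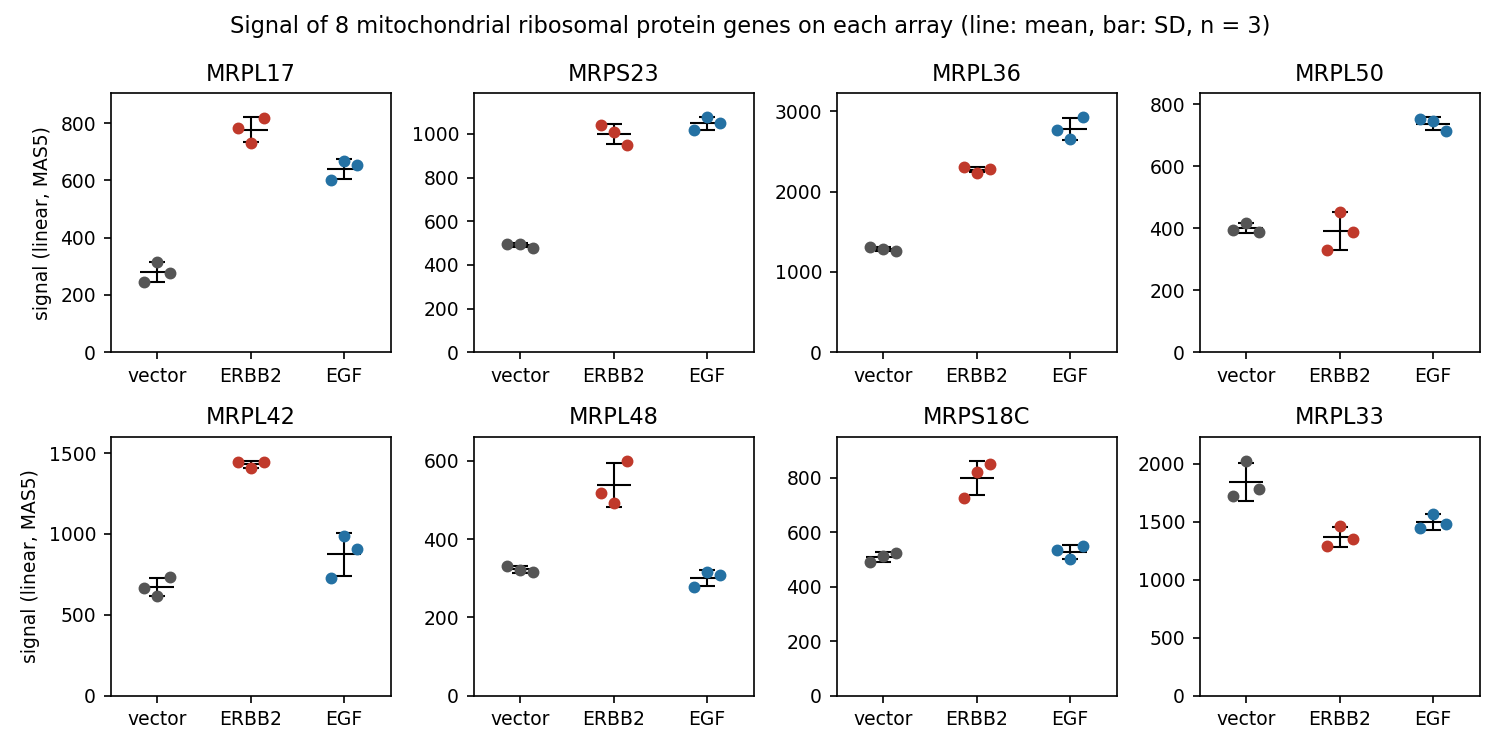
MAS5 signal (linear) of 8 genes on each array, with the mean as a line and the SD as bars (n = 3 per group). MRPL17 and MRPS23 are raised in both groups, MRPL36 most with EGF (2651 to 2930), MRPL50 with EGF only, MRPL42, MRPL48 and MRPS18C mostly in ERBB2, and MRPL33 is lower in both.

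ERBB2 and EGF were then compared directly, since their comparisons with vector share the vector arrays. Of the genes tested, 27 of 76 genes were higher in ERBB2 than in EGF and 8 lower. That is 35.5% and 10.5%, against 12.8% and 16.1% of all genes tested, with a median of 0.16 against 0.01. The direction rests on the scaling: with equal array medians 11 genes were higher, 15 lower and the median was -0.04, and of all calls on the arrays 23.7% rather than 48.7% were higher. Without EGF replicate 3, 18 were higher and 5 lower.

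The gene furthest towards ERBB2 was MRPL48, found only in mitochondria. It read 517.4, 493.3 and 600.6 in ERBB2 and 277.9, 316 and 307.6 with EGF (0.8, adjusted p = 6.727e-06), where vector read 330.5, 321.5 and 315. Its EGF and vector arrays overlapped, and only the ERBB2 arrays stood apart. MRPL42 (0.71, adjusted p = 2.144e-05) read 727, 988 and 907.6 with EGF. MRPL39, found only in mitochondria, read 747.8, 871.4 and 975.7 in ERBB2 and 481.9, 615.5 and 580.9 with EGF (0.61, adjusted p = 0.0003232). MRPL38 read 609.7, 546.9 and 517.2 against 383.3, 346.9 and 363.2 (0.59, adjusted p = 0.0007024). In neither gene was EGF called against vector. MRPL22, whose counterpart lines the exit tunnel, read 1248, 1178 and 1151 in ERBB2 and 723.2, 803.3 and 859.4 with EGF (0.58, adjusted p = 3.895e-05), and its EGF change against vector was 0.01.

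MRPL50 went furthest towards EGF. It read 329, 453.5 and 388.7 in ERBB2, overlapping vector (-0.04, adjusted p = 0.7852), and ERBB2 minus EGF was -0.9 ± 0.11 (adjusted p = 2.353e-06). A second MRPL50 probe set changed alike (0.13 in ERBB2, 0.99 with EGF, -0.86 between them), and another, dim one at 23.98 to 34.45 was called in no comparison. MRPL20 read 1494, 1633 and 1233 in ERBB2, below every EGF array (-0.46, adjusted p = 0.001538). That call was lost with the mean of its probe sets (-0.1, adjusted p = 0.5762). MRPS6 read 769.6, 774.4 and 741.9 in vector, 888.6, 836.9 and 922 in ERBB2 and 1140, 1163 and 1134 with EGF, 3 steps without overlap (ERBB2 minus EGF -0.37, adjusted p = 0.001245). MRPL36 read 2302, 2237 and 2285 in ERBB2, between vector and EGF (-0.29, adjusted p = 0.003841). MRPS26 was called at -0.37 (adjusted p = 0.04639), a call lost in 10 alternatives, among them without ERBB2 replicate 1, 2 or 3 (adjusted p = 0.07488, 0.1782 and 0.0505) and without EGF replicate 1 or 3 (adjusted p = 0.08264 and 0.2872). MRPL17 (0.27, adjusted p = 0.05283), MRPS23 (-0.07, adjusted p = 0.6019) and MRPS17 (-0.02, adjusted p = 0.8889) were not called between ERBB2 and EGF.

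**Figure D4:**
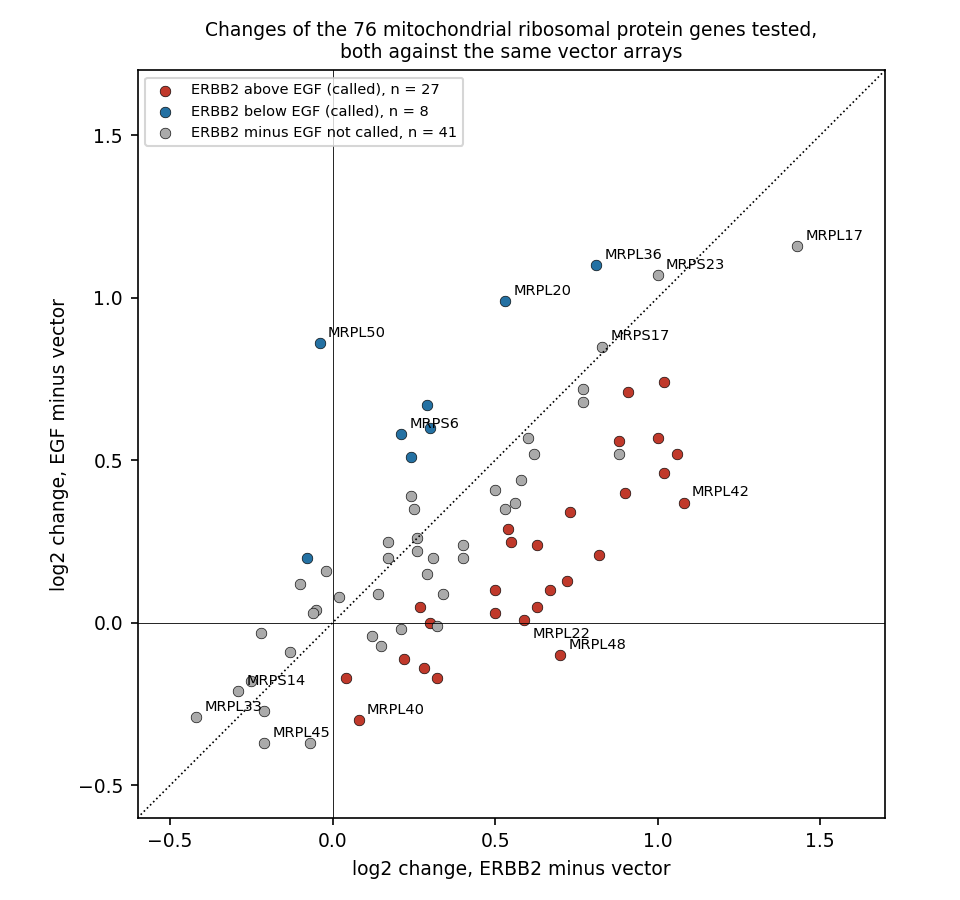
Log2 change with EGF (vertical) against that in ERBB2 (horizontal), both from the same vector arrays, for the 76 genes tested; the dotted line marks equal changes. Red points (27) were higher in ERBB2 than in EGF by the direct test, blue points (8) lower and grey points (41) not called; MRPL17 lies at the upper right, MRPL50 and MRPL20 above the line and MRPL48 and MRPL42 below it.

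By subunit, 30 of 50 large (60%) and 17 of 25 small subunit genes (68%) were called higher in ERBB2. Their medians were 0.37 and 0.31. With EGF the counts were 22 and 11 (44% each), with medians of 0.21 and 0.2. Of all genes tested, 20.8% were called higher in ERBB2 and 17.2% with EGF. By origin, 33 of 45 genes with a bacterial counterpart (73.3%) and 14 of 30 without (46.7%) were called higher in ERBB2. The medians were 0.5 and 0.29. With EGF 22 (48.9%) and 11 (36.7%) were called higher (medians 0.25 and 0.16). The highest median was in large subunit proteins with a bacterial counterpart, 0.56 in ERBB2 and 0.35 with EGF, and the lowest in large subunit proteins without one, 0.24 and 0.11. These are descriptions, and the difference between the classes was not tested. The 2 genes called lower in ERBB2, MRPL33 and MRPS14, both have a bacterial counterpart.

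**Figure D5:**
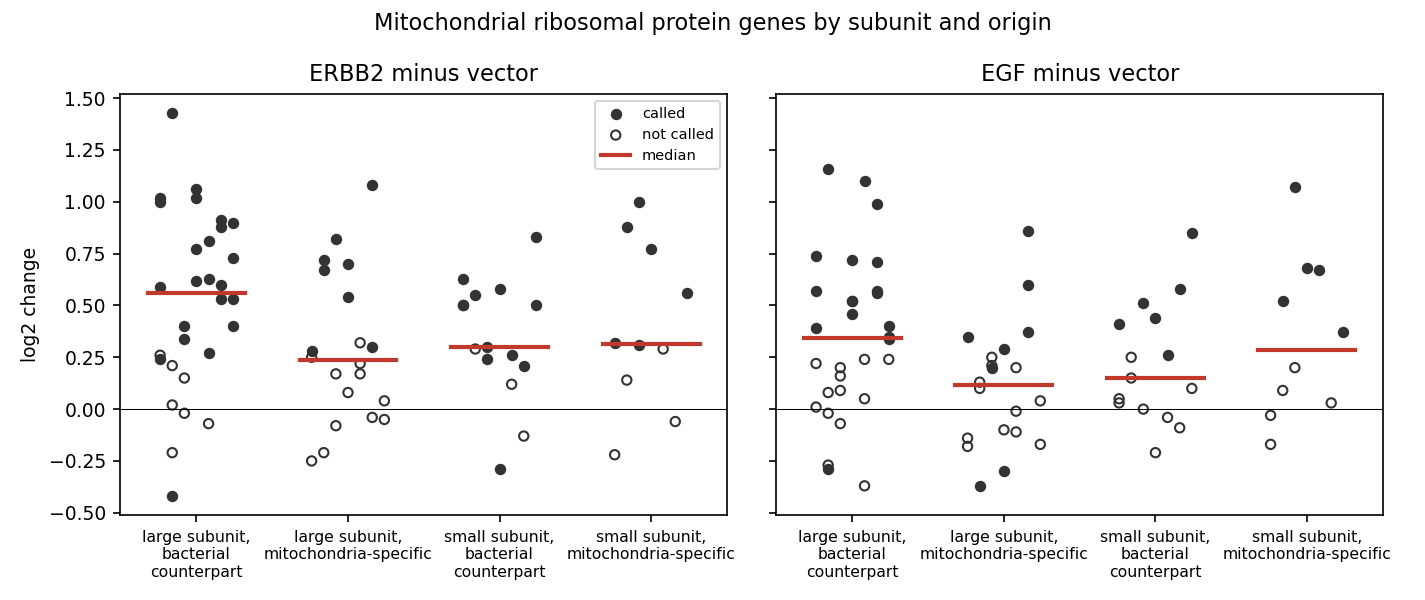
Log2 change of the 75 mitochondrial ribosomal protein genes by subunit and bacterial counterpart, for ERBB2 (left) and EGF (right) against vector; filled points were called, open points not, and the red line is the median. The medians in ERBB2 are 0.56, 0.24, 0.3 and 0.32 from left to right, and each class spans genes near or below 0 and genes above 0.75.

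The 3 MRPS18 paralogs, which occupy different places in the ribosome, were each measured. MRPS18C, the copy in the usual position of the small subunit, read 491.3, 512.1 and 524.2 in vector, 726.9, 822.2 and 848.9 in ERBB2 and 533.4, 500.5 and 549.3 with EGF (0.63, adjusted p = 9.439e-06 in ERBB2; 0.05, adjusted p = 0.7363 with EGF). MRPS18A, which despite its name lies in the large subunit, read 161.3, 212.2 and 184.9, then 235.9, 226.5 and 241.7, then 147.7, 227.5 and 184.8, and was not called (0.32, adjusted p = 0.08433 in ERBB2). MRPS18B had probe sets that disagreed. Its brighter one was not called (-0.22, adjusted p = 0.1647 in ERBB2; -0.03 with EGF), and its other one was lower with EGF (-0.36, adjusted p = 0.01053).

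Several genes were measured by more than 1 probe set. Of 32 with several past the filter, all probe sets of a gene had the same sign for 21 in ERBB2, 19 with EGF and 10 in ERBB2 minus EGF. Opposite calls were made for MRPL57 and MRPS30 in ERBB2 and for MRPS12 with EGF and between ERBB2 and EGF. MRPS30, a large subunit protein despite its name, read 439.1, 461.6 and 433.1 in vector, 552.7, 544.9 and 552 in ERBB2 and 612.6, 778.1 and 661.8 with EGF at its brightest probe set (0.3, adjusted p = 0.01756; 0.6, adjusted p = 7.04e-05). Another MRPS30 probe set was lower in ERBB2 (-0.35, adjusted p = 0.02712), so the direction of MRPS30 in ERBB2 depends on the probe set. The rise was also not called without vector replicate 3 (adjusted p = 0.05799). MRPS12, a protein of the decoding centre, rose with EGF at its brightest probe set (0.51, adjusted p = 0.0001623) and fell at its dimmest, which read 2.592 to 18.85 with EGF (-0.75, adjusted p = 0.04862). For MRPL57 one dimmer probe set was lower in ERBB2 (-0.69, adjusted p = 0.001524) and another higher (0.44, adjusted p = 0.04869). MRPL20-AS1 read 20.2 to 64.35 in ERBB2, 46.89 to 53.71 in vector and 40.2 to 68.47 with EGF and was called in no comparison. MRPL45P2 read 0.2335 to 13.82 and was not tested.

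The cytosolic ribosomal proteins, 61 genes of which 58 were tested, went the other way in the values as deposited. In ERBB2 3 were called higher and 49 lower (median -0.32), and with EGF 2 and 43 (-0.22). Lower were 84.5% in ERBB2 and 74.1% with EGF, against 25.1% and 19% of all genes. The genes were taken by symbol, which also takes in relatives with an L after the number, such as RPL10L. Those called higher were all of this kind, RPL22L1 and RPL7L1 in both comparisons and RPL26L1 in ERBB2. RPS27L, another of them, was called lower in both. The median signal of the 58 genes per array was 11130 to 15350, near the bright end of the arrays. In ERBB2 their median stayed below 0 under each scaling tried, at -0.23 with equal array medians and -0.06 with quantile normalization, where 15 were called lower. With EGF it was -0.04 with quantile normalization, where 2 were called higher and 4 lower. It turned to 0.08 with equal array medians, where 6 were called higher and 1 lower. The direction with EGF therefore rests on the scaling. The mitochondrial ribosomal genes had a median above 0 in both groups under each of these scalings. For 35 nuclear genes of respiratory complex I, 5 were higher and 13 lower in ERBB2 (0.01) and 2 and 11 with EGF (-0.13). In percent this is 14.3% and 37.1%, then 5.71% and 31.4%, against 20.8% and 25.1%, then 17.2% and 19% of all genes. With equal array medians the EGF counts for complex I turned to 9 higher and 1 lower (0.16). No test compared these lists with each other.

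Genes of mitochondrial DNA, whose messages this ribosome translates, were measured for 7 genes. In ERBB2 1 was called higher and 6 lower (median -0.36), and with EGF 5 were called lower and 2 not called (-0.25). In ERBB2 that is 14.3% and 85.7%, against 20.8% and 25.1% of all genes. With EGF it is 0% and 71.4%, against 17.2% and 19%. COX1, a core subunit of cytochrome oxidase, had a mean signal of 22330 in vector, 12390 in ERBB2 and 18180 with EGF (-0.85, adjusted p = 2.409e-09 in ERBB2). COX3 had 1682, 866.5 and 1496 (-0.95, adjusted p = 3.638e-07). ND6, a complex I subunit encoded on the light strand, went up in ERBB2, from 211.2 to 402.7 (0.91, adjusted p = 6.592e-05). With quantile normalization 2 rather than 6 were lower in ERBB2. With EGF, limma called 0 lower with quantile normalization (median -0.05; 1 at an unadjusted p under 0.05) and 0 with equal array medians (median 0.05; 0 unadjusted).

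Regulators of mitochondrial transcription rose in part. Of 14 tested, 7 were called higher and 2 lower in ERBB2, and 9 and 1 with EGF (medians 0.28 and 0.65). In ERBB2 that is 50% and 14.3%, against 20.8% and 25.1% of all genes. With EGF it is 64.3% and 7.14%, against 17.2% and 19%. PPRC1, a growth-induced coactivator of nuclear genes for mitochondria, had a mean signal of 65.97 in vector, 222.5 in ERBB2 and 204.2 with EGF (1.55, adjusted p = 7.89e-08; 1.43, adjusted p = 5.547e-07). GABPB1, a subunit of the ETS factor GABP, rose in ERBB2 (1.33, adjusted p = 4.253e-07). Its ERBB2 minus EGF difference was smaller (0.44, adjusted p = 0.03434), and that call was kept in 12 of 21 alternatives. TFAM, which packages mitochondrial DNA and starts its transcription, had 263.6 in vector and 512.9 with EGF (0.92, adjusted p = 1.753e-06). ESRRA, an orphan nuclear receptor of mitochondrial genes, fell in both (-0.68, adjusted p = 5.106e-05; -0.60, adjusted p = 0.0003219), the second call being lost with equal array medians and with the mean of its probe sets. YY1, at its brightest probe set, was lower in ERBB2 (-0.33, adjusted p = 0.001969) and higher with EGF (0.43, adjusted p = 0.0002524). With the mean of its probe sets the ERBB2 call was lost (-0.13, adjusted p = 0.2704). ERBB2 minus EGF was then -0.03 (adjusted p = 0.8334), so the EGF rise of YY1 depends on the probe set as well. MYC, a driver of ribosome production, had 4376 in vector, 5315 in ERBB2 and 6724 with EGF (0.27, adjusted p = 0.01565; 0.62, adjusted p = 1.474e-05). The smaller MYC call was lost without vector replicate 1, vector replicate 3 or ERBB2 replicate 1 (adjusted p = 0.05734, 0.06187 and 0.1169).

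Factors that build the ribosome and modify its RNA were more often called higher than lower. Of 26 tested, 10 were higher and 5 lower in ERBB2, and 10 and 3 with EGF (medians 0.29 and 0.21). In ERBB2 that is 38.5% and 19.2%, against 20.8% and 25.1% of all genes. With EGF it is 38.5% and 11.5%, against 17.2% and 19%. MTERF3, needed for large subunit biogenesis, rose in both (1.02, adjusted p = 3.716e-08; 1.01, adjusted p = 9.763e-08). FASTKD2, an RNA-binding protein of the large subunit's RNA, did too (0.97, adjusted p = 1.561e-07; 1.06, adjusted p = 1.021e-07). RPUSD3, a pseudouridine synthase-like protein, fell in both (-1.14, adjusted p = 3.873e-07; -0.60, adjusted p = 0.001076), but was not called with the mean of its probe sets. Of 4 mitoribosome proteins with other symbols, 2 were higher in each group, GADD45GIP1 (0.39 and 0.46) and DAP3 (0.23 and 0.33). That is 50% in each, against 20.8% and 17.2% of all genes. With the mean of its probe sets neither was called in either group. The ERBB2 call of GADD45GIP1 was also lost without ERBB2 replicate 1 (adjusted p = 0.05717), and that of DAP3 without vector replicate 2 or 3 or ERBB2 replicate 1 or 2 (adjusted p = 0.05696, 0.0671, 0.1195 and 0.05502).

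Of 16 translation factors, 3 were higher and 2 lower in ERBB2, and with EGF 3 were higher and 13 not called (medians 0.02 and 0.01). The share called higher, 18.8% in each, lay near that of all genes. GFM1, the elongation factor that moves the ribosome along, had a mean signal of 360.5 in vector, 692.9 in ERBB2 and 777.5 with EGF (0.92, adjusted p = 2.696e-07; 1.08, adjusted p = 6.482e-08). RMND1, which supports mitochondrial translation, was lower in ERBB2 (-0.62, adjusted p = 0.0007464). Of 15 mitochondrial aminoacyl-tRNA synthetases, which charge transfer RNAs, 5 were higher and 4 lower in ERBB2 and 5 and 1 with EGF. Higher were 33.3% in each, against 20.8% and 17.2% of all genes. Lower were 26.7% in ERBB2, near the 25.1% of all genes, and 6.67% with EGF, against 19%. MARS2 rose in both (1.03, adjusted p = 4.874e-05; 0.85, adjusted p = 0.0006554). VARS2 was lower in ERBB2 than in vector (-1.06, adjusted p = 1.154e-08) and than in EGF (-1.54, adjusted p = 2.39e-10), and CARS2 likewise (-1.09, adjusted p = 2.737e-08; -0.85, adjusted p = 2.128e-06). With the mean of its probe sets, CARS2 was at -0.39 against vector (adjusted p = 0.02256) and no longer called against EGF (-0.26, adjusted p = 0.1624).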

How the data were processed

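RNA of MCF10A cells was measured on 9 Affymetrix arrays, 3 per group, with groups from the sample titles. The deposited values are linear signal intensities made by the authors with MAS5, per the submitters' processing notes, whose version is not given in the sources used here. On every array the mean after trimming 2% at each end was 100.03, and scaling each array as a whole can absorb a shift shared by many genes. Between 44.1% and 50.6% of probe sets read under 16.

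Differences were computed with limma 3.58.1 (R 4.3.3; lmFit, eBayes with trend) on log2(signal + 16) over all 9 arrays, without 62 control probe sets and those with a mean under the 40th percentile (signal 10.6), with Benjamini-Hochberg adjustment over all 32768 kept. The residual degrees of freedom were 6, and exact permutation of 3 against 3 arrays cannot go below p = 0.1. Precision is limited by the number of arrays. Probe sets with 1 annotated gene numbered 41097; 1801 had several and 11777 none. The scripts were tested on simulated data.

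The genes, gene lists and comparisons were chosen with earlier results of these data known. Named were, per comparison, the 6 largest called rises and falls, the 3 brightest genes, genes with opposite probe set calls, the MRPS18 paralogs, MRPL12, non-coding relatives and up to 2 rises and 2 falls of each list, with MYC and PPRC1. The lists of cytosolic ribosomal and complex I genes and the promoter motifs were added after the values were available. Promoters are from RefSeq. Replicate numbers were checked for pairing. Deviations of same-numbered arrays correlated between -0.03 and 0.019, so no pattern shared by number was seen. Such a check cannot tell whether same-numbered arrays share an infection or a day.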

Additional observations from a re-analysis of the deposited data

How the results depend on the processing

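Over 129 named results and up to 21 alternatives each, 2532 of 2709 values kept their direction and side of the threshold. With the sign kept, 138 lost the call and 9 gained one. Another 30 changed sign, and some of these also lost or gained a call. In ERBB2 minus vector, between 42 and 48 genes were higher and 2 to 4 lower without any one array; 1 was lower with equal array medians and without the variance trend, and 5 when each probe set was counted. The median was 0.40 with equal medians, 0.37 with equal array means of log2 values, an alternative chosen after seeing the data, and 0.30 to 0.38 without one array. In EGF minus vector, 59 were higher with equal medians and 27 to 33 without one array; 7 were lower with quantile normalization, 0 by limma with equal medians (0 at an unadjusted p under 0.05) and 0 without the trend (3 unadjusted), 5 with the mean of all probe sets, 6 counting each probe set, 1 with equal means and 2 to 5 without one array. The median was 0.50 with equal medians and 0.28 with equal means. In ERBB2 minus EGF, 11 were higher and 15 lower with equal medians (median -0.04), 16 and 3 without the trend, 4 were lower with the mean of probe sets, and 18 to 29 higher and 5 to 8 lower without one array. Sign changed with the mean of probe sets for LRPPRC (0.03), MRPS30 (-0.02) and MRPS15 (-0.03) in ERBB2 minus vector, GADD45GIP1 (-0.04) and MRPS18A (0.15) in EGF minus vector and MRPS18B (0.15) in ERBB2 minus EGF. With equal medians it changed for MRPL57 (0.01) in ERBB2 minus vector, MRPL33 (0.00), COX1 (0.00), ND2 (0.03), MRPS15 (0.26), MRPS18A (0.27) and MRPS18B (0.27) in EGF minus vector, and MRPL3 (-0.01), MRPS15 (-0.05), PPRC1 (-0.07) and MRPL12 (-0.11) in ERBB2 minus EGF. With equal means it changed for MRPS15 (0.04), MRPS18B (0.05) and MRPS18A (0.07), with array weights for MRPS18A (0.02) and with quantile normalization for MRPS18C (-0.01), all in EGF minus vector. Leaving out an array in turn gave values on both sides of 0 in EGF minus vector for MRPS18A (-0.15 to 0.14; above 0 without EGF replicate 1 or vector replicate 2), MRPS18B (-0.14 to 0.12; without EGF replicate 1 or vector replicate 3), MRPS15 (-0.11 to 0.02; without vector replicate 2) and MRPL20-AS1 (-0.01 to 0.29; below 0 without EGF replicate 3), and without ERBB2 replicate 2 for MRPL20-AS1 in ERBB2 minus vector (-0.29 to 0.28) and ERBB2 minus EGF (-0.41 to 0.17). The cause was not tested. Of the genes called higher, 37 of 47 in ERBB2, 24 of 33 with EGF and 11 of 27 in ERBB2 minus EGF kept the call in all 20 alternatives that give 1 value per gene. With the replicate number as a block, 47 and 2, 33 and 3, and 26 and 8 genes were higher and lower in the comparisons in this order, and no named call changed. Changes of signals near or under the added 16 are compressed, and their height over background was not measured here.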
